A study of Mus musculus with 6 samples.

Results

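Hypoxia-induced target genes are genes that many cell types switch on when oxygen falls. The set comprised 9 genes named for that role, and a gene entered through every array probe whose platform annotation gave its symbol and no other. Of the 9, 7 had a probe, namely Bhlhe40, Ddit4, Bnip3, Vegfa, Adm, Pfkfb3 and Ndrg1. Ndrg1 had 2 probes, which gave 8 member probes among the 36227 on the array, and the 7 genes were among 18069 with a probe of 1 symbol. Bnip3l and Ankrd37 were not analysed here. All 8 member probes had a value on every array, and all were tested. The series asked what forced expression of uncoupling protein 1 (UCP1), which lets protons re-enter the mitochondrial matrix without making ATP, does to gene expression in 3T3-L1 adipocytes, fat cells derived from a mouse preadipocyte line. Total RNA was taken from cells 10 days after differentiation and read on CodeLink one-colour arrays with a biotin label. Of the arrays, 3 were from control cells that carried the Tet-off plasmid alone and 3 from cells that expressed UCP1. The labels do not say what the UCP1 cells carried besides UCP1, nor that replicate arrays stand for different cultures or clones. The p-values therefore measure array-to-array spread alone, part or all of which may be technical.

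The pathway works through the hypoxia-inducible factors (HIFs). With oxygen present, prolyl hydroxylases of the Egln family mark the HIF alpha subunits, the von Hippel-Lindau protein Vhl binds the marked form and the protein is degraded. When oxygen is short the alpha subunit persists, pairs with Arnt and binds a short DNA core, ACGTG or GCGTG, near its targets. Its activity is set mostly at the protein level, so mRNA levels of the subunits do not measure it. Among the members, Bhlhe40 encodes a transcriptional repressor, Ddit4 an inhibitor of mTORC1 signalling and Bnip3 a receptor on the outer mitochondrial membrane for the removal of mitochondria by autophagy. Vegfa and Adm encode secreted peptides that act on blood vessels, Pfkfb3 an enzyme whose product activates phosphofructokinase, and Ndrg1 a cytosolic protein linked to stress and differentiation.

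The promoters of Ddit4 and Bnip3, which fell, and of Adm, which did not pass the test, are shown so that the HIF core can be seen beside the values. Each run holds the 250 bases before the annotated start in RefSeq (GRCm38.p6), read 5′ to 3′ along the gene, with every ACGTG or GCGTG of either strand in capitals (CACGT and CACGC are the same letters on the opposite strand).
Ddit4, chr10:59951771-59952020, minus strand: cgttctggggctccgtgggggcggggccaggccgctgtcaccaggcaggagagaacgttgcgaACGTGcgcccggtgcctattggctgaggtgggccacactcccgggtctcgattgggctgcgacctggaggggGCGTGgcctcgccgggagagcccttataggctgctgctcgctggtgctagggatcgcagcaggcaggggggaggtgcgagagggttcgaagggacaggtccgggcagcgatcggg
Bnip3, chr7:138909507-138909756, minus strand: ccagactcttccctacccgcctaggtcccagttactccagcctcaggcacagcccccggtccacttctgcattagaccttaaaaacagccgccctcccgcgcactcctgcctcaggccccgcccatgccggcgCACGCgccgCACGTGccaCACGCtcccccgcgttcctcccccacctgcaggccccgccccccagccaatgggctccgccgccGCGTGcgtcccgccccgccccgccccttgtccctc
Adm, chr7:110627407-110627656, plus strand: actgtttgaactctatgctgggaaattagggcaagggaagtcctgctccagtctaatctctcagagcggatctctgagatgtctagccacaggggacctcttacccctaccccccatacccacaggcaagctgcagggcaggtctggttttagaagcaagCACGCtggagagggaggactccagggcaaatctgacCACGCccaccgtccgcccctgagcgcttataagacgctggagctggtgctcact

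Ddit4 had 2 matches, which began 187 and 115 bases before the start. Bnip3 had 5, of which the pair at 108 and 107 bases overlap as the palindrome CACGTG, an E-box of the kind that Bhlhe40 binds. Adm had 2, both on the opposite strand, at 90 and 54 bases. Pfkfb3 had a match before both of its listed starts, 1 before the first and 3 before the second. Of those 3, the matches at 53 and 52 bases also overlap as CACGTG. Vegfa had none before its first start and 2 before a second, internal one. The table used had a window for 5 of the 7 members with a probe, and none for Bhlhe40 or Ndrg1. Of 32851 windows of the same length 38.6% held the core on either strand and 6.02% held CACGTG. A core match stood before genes that fell and before genes that did not pass.

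Across the members 3 of 7 genes fell in UCP1 cells (Bhlhe40, Ddit4 and Bnip3) and 0 rose. The test was limma's moderated comparison over all 36116 tested probes, with Benjamini-Hochberg adjustment and a threshold of 0.05, and a probe that passed is called. By probe, 3 of 8 were called lower, against 2.03% of all tested probes, and 0 of 8 higher, against 0.800%. In limma 5 of the 8 member probes, all lower, had an unadjusted p under 0.05, against 6161 of 36116 tested probes in either direction. The 3 UCP1 arrays all lay below the 3 control arrays at 6 of the 8 member probes, against 14.0% of all tested probes, and the log2 difference (UCP1 minus control) was below 0 at 7 of the 8, against 56.9%. The median log2 difference was -0.62 over the member probes and -0.37 over the 7 genes, each by its brightest probe. It was -0.06 over all tested probes and -0.08 over all 18014 genes, each by its brightest probe. Of those genes 526 were called lower and 203 higher, and 10828 lay below 0. The UCP1 arrays all lay below the controls for 3085 of them. The gene lists below were read by brightest probe in the same way. Fewer cells of a type and less RNA per cell cannot be told apart in RNA of a whole culture.

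**Figure D1:**
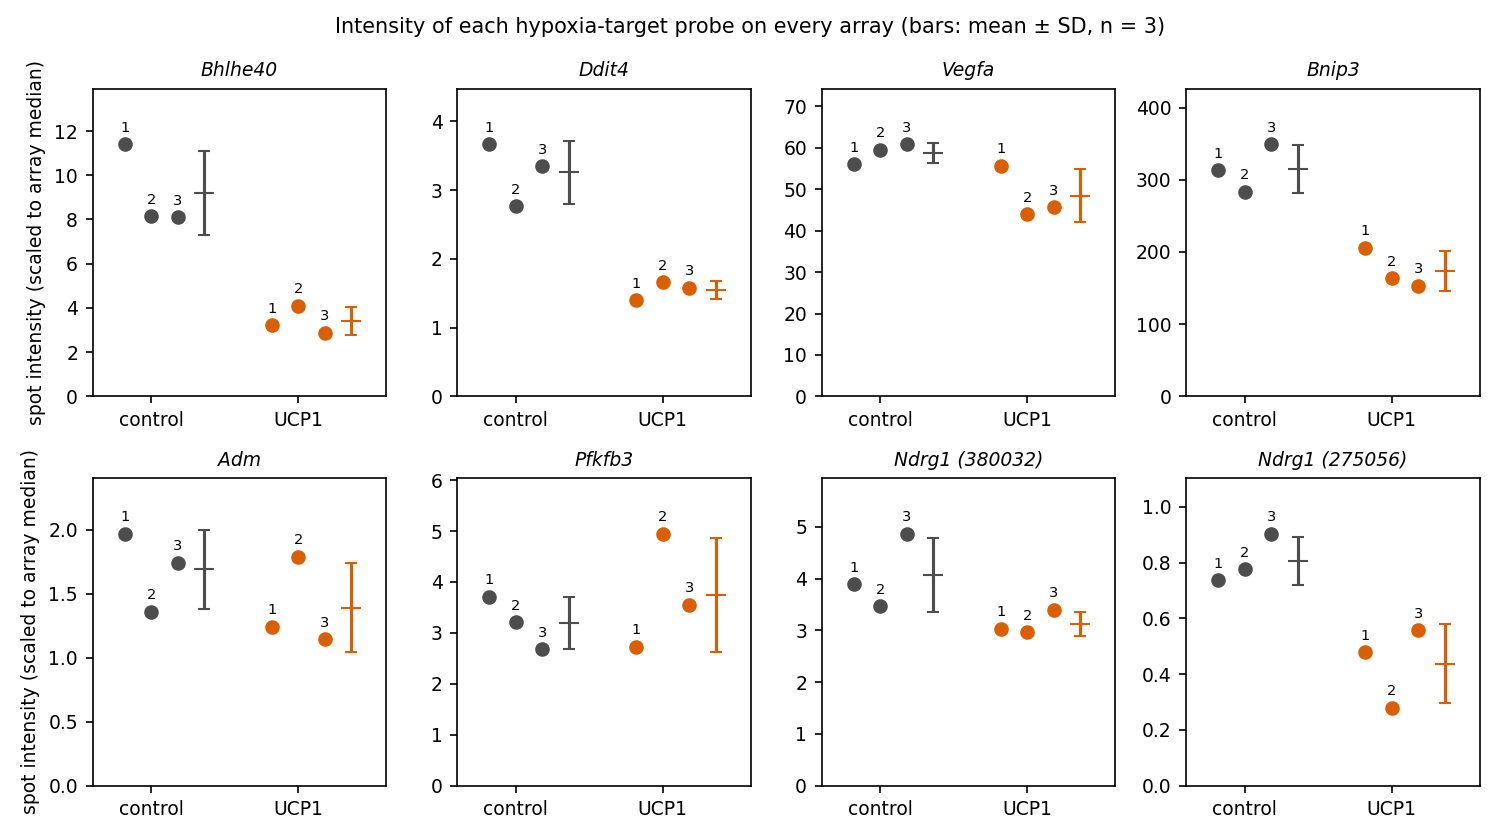
Spot intensity (linear axis from 0, relative to the array median) of the 8 member probes on each array, numbered as in the text, with the mean ± SD of each group (n = 3). The groups are apart for Bhlhe40, Ddit4, Bnip3, Vegfa and both Ndrg1 probes, and overlap for Adm and Pfkfb3.

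Bhlhe40 (probe 257060) had the largest difference of the members. This repressor of transcription, which also takes part in the circadian clock, read 11.4, 8.14 and 8.09 on control arrays 1, 2 and 3 and 3.22, 4.11 and 2.87 on UCP1 arrays 1, 2 and 3. The groups were far apart, and control 1 stood above the other controls. Means were 9.21 ± 1.89 in controls and 3.4 ± 0.636 in UCP1 cells (SD, n = 3 each). The fall was 2.70-fold, a log2 difference of -1.43 ± 0.167 (SE; limma, adjusted p = 0.00169). The call held with each array left out in turn, where the difference lay between -1.58 and -1.27.

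Ddit4 (probe 394090), whose product restrains mTORC1 and so growth when oxygen or nutrients are short, was the next. It read 3.66, 2.76 and 3.35 on the controls and 1.40, 1.66 and 1.58 on the UCP1 arrays. Every UCP1 array lay well below the lowest control. Control cells averaged 3.26 ± 0.458 and UCP1 cells 1.55 ± 0.136 (SD, n = 3 each). Ddit4 fell 2.10-fold, a log2 difference of -1.07 ± 0.15 (SE; limma, adjusted p = 0.00443). The call also held with each array left out in turn, with differences between -1.18 and -0.98.

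Bnip3 (probe 291066) read 313, 283 and 349 on the controls and 206, 163 and 153 on the UCP1 arrays. The groups did not overlap, and UCP1 1 was the UCP1 array nearest to the controls. The averages were 315 ± 32.9 and 174 ± 27.8 (SD, n = 3 each), a 1.82-fold fall, which is a log2 difference of -0.86 ± 0.184 (SE; limma, adjusted p = 0.031). This call was close to the threshold. It was kept without UCP1 1 (adjusted p = 0.00965) and lost without control 1 (0.136), control 2 (0.0917), control 3 (0.121), UCP1 2 (0.0514) or UCP1 3 (0.103), with differences between -0.99 and -0.78 over the 6 settings. The top of the intensity range was lower on the UCP1 arrays, whose 99th percentiles were 225, 223 and 185 against 279, 255 and 258 in controls. After quantile normalization, which gives all arrays 1 intensity distribution, Bnip3 stood at -0.54 and was not called (adjusted p = 0.0758), whereas after cyclic loess it stood at -0.60 and was called (adjusted p = 0.0252).

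**Figure D2:**
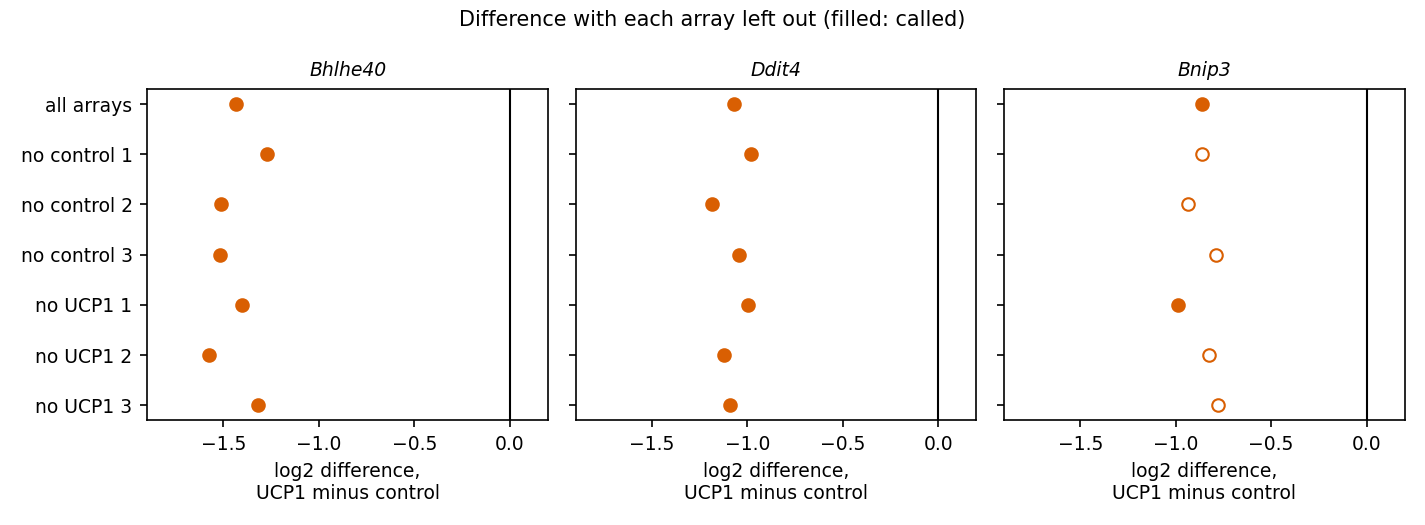
Log2 difference (UCP1 minus control) of Bhlhe40, Ddit4 and Bnip3 with all 6 arrays and with each array left out, filled where called (limma, adjusted p under 0.05). Every point is below 0. Bhlhe40 and Ddit4 are called throughout, and Bnip3 with all arrays and without UCP1 1.

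The secreted ligands did not pass. Vegfa (probe 54045), the main growth factor for blood vessels, read 56.0, 59.5 and 60.8 on the controls and 55.7, 43.9 and 45.7 on the UCP1 arrays. UCP1 1 was just below control 1, the other UCP1 arrays were lower, and the groups did not overlap. The log2 difference was -0.29 ± 0.133 (SE; limma, adjusted p = 0.299), with a 95% interval from -0.58 to 0.0033, and -0.10 after quantile normalization. Adm (probe 396044), which encodes the vessel-relaxing peptide adrenomedullin, read 1.97, 1.36 and 1.74 on the controls and 1.24, 1.79 and 1.14 on the UCP1 arrays. The groups overlapped, since UCP1 2 was above control 2 and control 3. The log2 difference of Adm was -0.29 ± 0.205 (SE; limma, adjusted p = 0.524), with an interval from -0.74 to 0.15. It was -0.49 without UCP1 2, -0.44 without control 2, -0.17 without control 1 and -0.16 without UCP1 3. That interval holds 0 as well as falls of the size seen for the brighter Ndrg1 probe.

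Pfkfb3 (probe 322075) was the 1 member with a difference above 0. The enzyme makes the sugar phosphate that speeds glycolysis at phosphofructokinase. Its probe read 3.71, 3.21 and 2.68 on the controls and 2.72, 4.95 and 3.56 on the UCP1 arrays. The groups overlapped, and UCP1 2 was the highest of the 6 arrays, as it was the highest UCP1 array for Bhlhe40, Ddit4 and Adm. The log2 difference was 0.20 ± 0.201 (SE; limma, adjusted p = 0.68), with an interval from -0.24 to 0.63. Without UCP1 2 it was -0.03.

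Ndrg1 was lower on both probes and called on neither. Probe 380032 read 3.89, 3.47 and 4.87 on the controls and 3.03, 2.97 and 3.40 on the UCP1 arrays. The UCP1 arrays lay just under the lowest control, with a log2 difference of -0.37 ± 0.145 (SE; limma, adjusted p = 0.21), which was -0.23 without control 3. Probe 275056 was dim. It read 0.737, 0.777 and 0.904 on the controls and 0.479, 0.279 and 0.557 on the UCP1 arrays. These readings lay above 43.8% to 47.2% of the probes of the control arrays but above as little as 22.6% of those of UCP1 2. Its log2 difference was -0.93 ± 0.288 (SE; limma, adjusted p = 0.109), and the 2 intervals, from -0.69 to -0.05 and from -1.56 to -0.30, overlap.

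**Figure D3:**
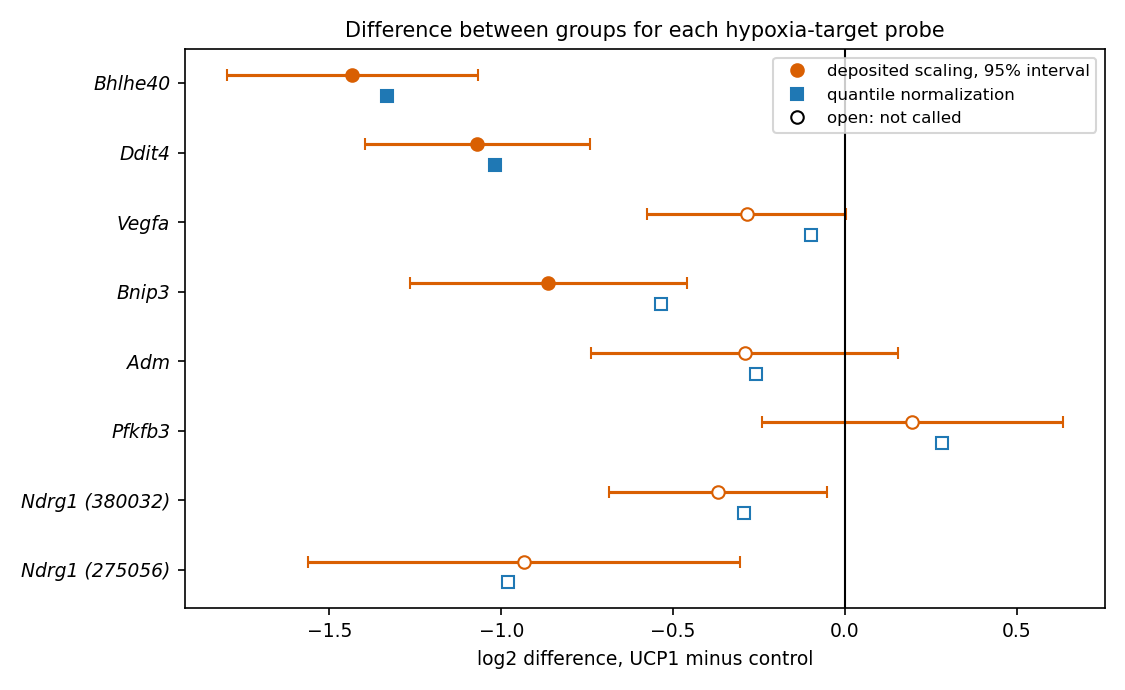
Log2 difference (UCP1 minus control) of each member probe in the deposited scaling with its 95% interval (circles) and after quantile normalization (squares), filled where called. Bhlhe40 and Ddit4 are called under both scalings, Bnip3 in the deposited one, and Pfkfb3 lies above 0 under both.

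Whether the members changed by different amounts was compared within arrays, where a factor common to all probes of an array cancels. A shift that depends on intensity does not cancel between a bright and a dim probe. For each of the 21 pairs of member genes the log2 ratio of their brightest probes was compared between groups with a two-sided exact permutation test. Its smallest possible p for groups of 3 is 0.1. The groups were apart for 11 of the 21 pairs, and each of these held Bhlhe40, Ddit4 or Bnip3, the genes already called. The pairs reuse the same genes, so they are not separate results. How often pairs of other genes were apart was not counted. The ratio of Bhlhe40 to Pfkfb3 differed most, by -1.63 on the log2 scale with SDs of 0.151 in controls and 0.307 in UCP1 cells (exact permutation p = 0.1, 0.191 adjusted over the 21 pairs). Bhlhe40 and Ddit4 differed from each other by -0.36, with overlapping groups (exact permutation p = 0.2, 0.28 adjusted). The ratio of Bhlhe40 to Adm differed by -1.14, with SDs of 0.199 and 0.0919. This test cannot reach the threshold with groups of 3, so it neither shows nor excludes that members changed by different amounts.

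Of 10 oxygen-sensing genes upstream of the members 3 were called lower (Egln1, Egln3 and Vhl) and 0 higher. The shares over all tested probes were 2.03% and 0.800%. The median log2 difference of the 10 was -0.03 (0.09 after quantile normalization). Egln1, the main prolyl hydroxylase of HIF, averaged 2.98 ± 1.18 in controls and 0.844 ± 0.551 in UCP1 cells (SD, n = 3 each), a log2 difference of -2.01 (limma, adjusted p = 0.0385). Its 6 readings were widely spread, from 1.98 to 4.29 on the controls and from 0.297 to 1.40 on the UCP1 arrays, without overlap. Egln3, a hydroxylase that is itself a HIF target, fell 2.03-fold from 78.2 ± 16.2 to 39.7 ± 14.8 (adjusted p = 0.0406). Vhl fell 1.86-fold from 4.56 ± 0.505 to 2.49 ± 0.621 (adjusted p = 0.0226). Of the alpha subunits, Hif1a and Epas1 were not called. Hif1a was measured at 0.23 ± 0.141 (SE; adjusted p = 0.45), and Epas1 at 0.26 ± 0.272 (SE; adjusted p = 0.683) on a dim probe. Of the 3 Hif3a probes the brightest stood at 0.24 and was not called, while probe 384005, singled out after its values were seen, stood at -1.67 and was called lower. The count of 3 was 0 without control 1 or UCP1 3, 1 without control 3, 2 without control 2 or UCP1 2, and 4 without UCP1 1. It was 1 after quantile normalization (Vhl), after cyclic loess and with robust eBayes.

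Other HIF targets were measured outside the member set. Of 12 measured glycolytic targets 5 were called lower and 0 higher, against 2.03% and 0.800% of all tested probes. By brightest probe, as for these 12, it was 526 and 203 of 18014 genes. All 12 lay below 0, against 56.9% of all tested probes and 10828 of those genes. The median log2 difference of the 12 was -0.67, against -0.06 over all tested probes and -0.08 over those genes. After quantile normalization 4 of the 12 were called lower and their median was -0.57. Pkm, pyruvate kinase, stood at -1.98, Tpi1, triose phosphate isomerase, at -1.34 and Pdk1, which slows entry of pyruvate into mitochondria, at -1.07, all called (limma, adjusted p = 0.0128, 0.00219 and 0.00947). Pgk1, phosphoglycerate kinase, fell from 326 ± 49.0 to 163 ± 27.4 (SD, n = 3 each; limma, adjusted p = 0.0212). Its call was lost after quantile normalization (adjusted p = 0.0611) and without control 1, control 2, control 3 or UCP1 3. The glucose transporter Slc2a1, at -0.66 (adjusted p = 0.127), and Ldha, which makes lactate, at -0.68 (adjusted p = 0.13), did not pass. The second probe of Tpi1 stood at -0.11 and was not called. Gapdh was read near the array median, at means of 1.10 in controls and 0.720 in UCP1 cells, and its dimmer second probe stood at 0.09. The second probes of Ldha and Slc16a3 stood at -1.05 and -0.22. None of these second probes was called. The count of 5 was 1 without UCP1 3 and 9 without UCP1 1. Among the brighter probes alone it was 8 of 11, where 1716 of all 18058 probes were called lower.

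Of 19 other measured HIF targets 6 were called lower and 1 higher, against 2.03% and 0.800% of all tested probes. The median log2 difference of the 19 was -0.59 (-0.38 after quantile normalization). Ero1a, which oxidises proteins in the endoplasmic reticulum, fell 2.80-fold on its brightest probe, Mxi1, an antagonist of Myc, 2.78-fold on its brightest probe and Car9, a carbonic anhydrase of the cell surface, 2.72-fold (limma, adjusted p = 0.00271, 0.00126 and 0.00193). Each of these 3 calls held with any 1 array left out. Ero1a and Mxi1 each had 2 dimmer probes, and those were not called. The gene called higher, named after its values were seen, was Lox, which cross-links collagen and which rose from 12.9 ± 1.26 to 25.1 ± 2.33 (SD, n = 3 each; adjusted p = 0.00217). The count of 6 was 3 without control 1 or UCP1 3, 4 without control 3 and 11 without UCP1 1.

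**Figure D4:**
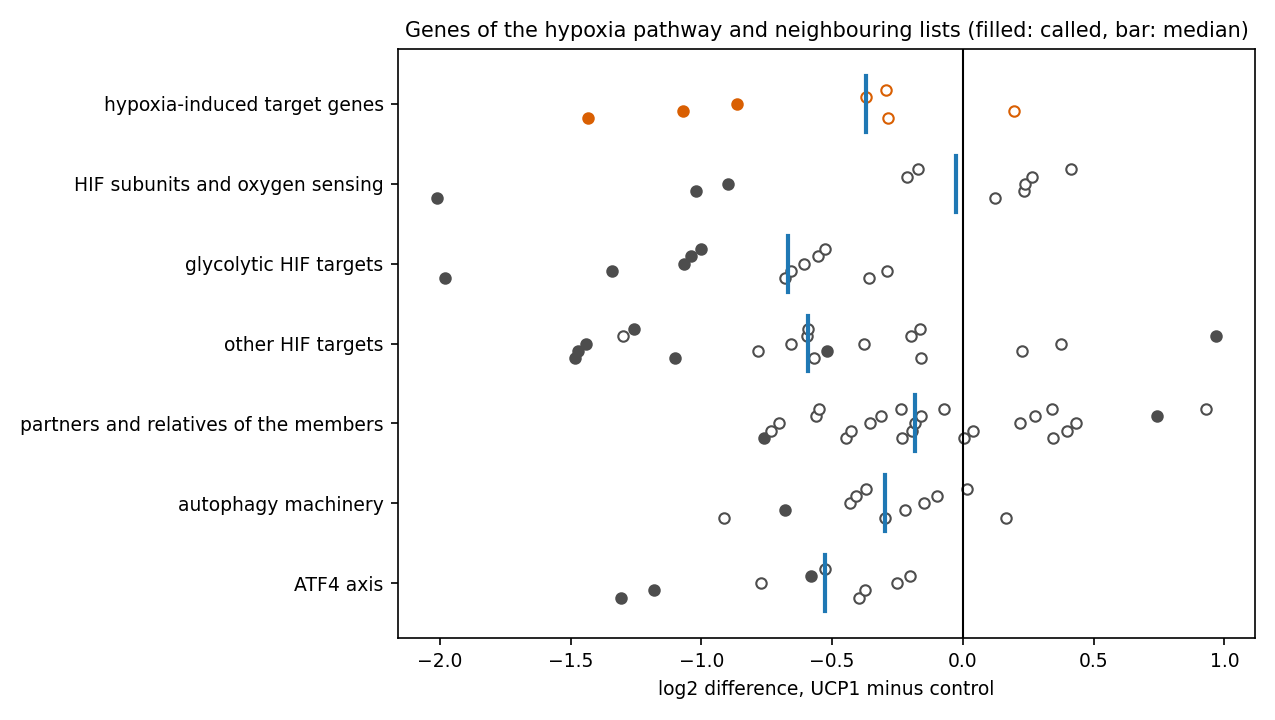
Log2 difference (UCP1 minus control) of every measured gene of the member set and of 6 related lists, each gene by its brightest probe, filled where called, with a bar at the median of the list. The medians of the glycolytic and other HIF targets are -0.67 and -0.59, that of the member genes is -0.37 and that of the HIF subunits and oxygen-sensing genes is -0.03.

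Of 25 relatives and partners of the members 1 was called lower and 1 higher, against 2.03% and 0.800% of all tested probes. The UCP1 arrays all lay below the controls for 6 of the 25, against 14.0% of all tested probes and 3085 of 18014 genes by brightest probe. For 5 of the 25 the UCP1 arrays all lay above, and that share was not counted over all probes. The median log2 difference of the 25 was -0.18, and -0.03 after quantile normalization. Among the family of Ndrg1, Ndrg3 fell by 0.76 on the log2 scale and Ndrg4 rose by 0.74 (limma, adjusted p = 0.0205 and 0.0203). After quantile normalization Ndrg3 was not called (adjusted p = 0.076). Both calls were lost without control 1, control 2 or UCP1 3, and that of Ndrg4 also without control 3. Of 11 genes of the autophagy machinery with which Bnip3 works, 1 was called lower and 0 higher, against 2.03% and 0.800% of all tested probes. The median of the 11 was -0.30, and -0.11 after quantile normalization. The called gene was Ulk1, the kinase that starts autophagy, lower by 0.68 on the log2 scale (limma, adjusted p = 0.0322). Ulk1 was not called without control 1, control 2, control 3 or UCP1 3. In the ATF4 axis, a stress pathway that also induces Ddit4, 3 of 9 were called lower and 0 higher, against 2.03% and 0.800%. The median was -0.53 (-0.32 after quantile normalization and -0.33 after cyclic loess). The 3 called genes were the pseudokinase gene Trib3, Chac1, which degrades glutathione, and the phosphatase subunit Ppp1r15a. They fell by 1.31, 1.18 and 0.58 (limma, adjusted p = 0.00214, 0.00947 and 0.0482). That count was 2 without any 1 of the 3 controls or after quantile normalization, 4 without UCP1 1 and 1 without UCP1 3 (Trib3). Counts for these lists are for genes outside the member set and were read from the same fit.

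The genes whose array pattern was nearest to the members' median pattern, measured as the root mean square distance of log2 values centred on each probe over the 6 arrays, were Phex, Slc1a4, Cmtm4, Rgs9 and Srr, at distances of 0.048 to 0.062 among 10749 candidate genes. Their log2 differences ran from -0.71 to -0.63, a range that follows from how these genes were picked.

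Across the series 732 of 36116 probes were called lower and 289 higher, against 446 and 567 after quantile normalization and 460 and 517 after cyclic loess. The label was checked on Ucp1, which read 0.222, 0.232 and 0.278 on the controls and 2.34, 2.02 and 1.54 on the UCP1 arrays. Of the adipocyte genes, Adipoq averaged 880 in controls against 818 with UCP1, and Fabp4 722 against 693. Of 7 adipocyte markers 0 were called lower and 1, Lep, was called higher, against 2.03% and 0.800% of all tested probes. The Lep call was lost without UCP1 3 (limma, adjusted p = 0.117). Of 7 preadipocyte or fibroblast markers 4 were called higher, against 0.800% of all tested probes. The 4 were Pdgfra, Thy1, Lum and Dcn, higher by 0.67 to 0.90 on the log2 scale. The count of 4 was 0 without control 2 or control 3, 1 without UCP1 3, and 2 without control 1 or with the replicate block. The summed intensity of these 4 was 115 to 144 on the controls and 189 to 251 on the UCP1 arrays. They were picked by their calls and each was apart by itself, so their sum had to be apart too. Over all 7 markers the summed intensity was 712 to 959 and 768 to 992. Most of it came from Col3a1, which was not called (532 to 734 and 511 to 669), and no marker was at 0. Dlk1, with a log2 difference of 0.34, and Col1a1, at -0.21, were not called either. The part of these markers in the results for the hypoxia targets was not tested. Of 6 endothelial, 4 macrophage and 5 skeletal muscle markers 0 were called (limma), and their summed intensities overlapped between the groups, at 1.52 to 2.28 and 1.61 to 2.57, at 10.2 to 15.1 and 10.9 to 11.8, and at 2.17 to 2.60 and 1.67 to 2.34. Most of the macrophage sum was Cd14, at a mean of 12.8 in controls and 10.8 in UCP1 cells.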

How the data were processed

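The deposited values were spot intensities on a linear scale, with nearly equal medians on the 6 arrays (1.04 to 1.05). How the authors scanned, background-corrected and scaled them was not given in the sources used here. A code of -9999 was taken as missing. Before log2 was taken, intensities at or below 0 were replaced by the lowest positive intensity on that array. Probes with at least 2 values per group were tested across all probes with limma 3.58.1 in R 4.3.3 (lmFit, eBayes with an intensity trend, two-sided, Benjamini-Hochberg). The functions were tested on simulated data. Precision is limited by having 3 arrays in a group. Groups came from the source field of the labels.

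The members and the lists were chosen with earlier results of these data known. Named genes were all members, in each pathway list the 3 called genes with the largest difference (or, with no call in the list, its 2 lowest p), Hif1a, Epas1, Egln1, Egln3, Vhl, Car9, Slc2a1, Ldha, Pgk1, Ucp1, Adipoq, Fabp4 and the 5 nearest in pattern. Any other gene was named after its values were seen. Each list gene was read from its brightest probe. Symbols came from the platform annotation, where 21615 of 36227 probes had 1 symbol. The alternatives were an offset before log2 (0.171, the 10th percentile of positive values), quantile and cyclic loess normalization, brighter probes alone, probes with positive values throughout, eBayes without the trend, robust eBayes, a replicate block and each array left out.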

Additional observations from a re-analysis of the deposited data

How the results depend on the processing

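There were 15 alternatives, of which 1, the brighter probes without the trend, was chosen after seeing the data. Over the 15, Bhlhe40 stayed between -1.58 and -1.27 and Ddit4 between -1.18 and -0.98 (log2, UCP1 minus control). Both calls were lost in 1 of them, eBayes without the intensity trend (adjusted p = 0.202 and 0.199), where 0 member probes and 0 of all probes were called by limma and 4951 of all probes had an unadjusted p under 0.05. Bnip3 kept its direction in all 15 and its call in 7, and the setting chosen after seeing the data is among those 7. The other member probes were called in none, and the dimmer Ndrg1 probe was not tested among the brighter probes. With the brighter probes alone, 2239 of 18058 probes were called, 1716 of them lower. With those probes and no trend, a setting chosen after seeing the data, 2135 were called, 1645 of them lower. In both, 3 of the 7 member probes tested were called lower, where the share of all probes called lower was also larger than in the main fit. The members' median was -0.37 in both because the dimmer Ndrg1 probe was left out. The members' median, -0.62 in the deposited scaling, was -0.42 after quantile normalization and -0.46 after cyclic loess. Without 1 array the number of probes called over the array ranged from 159 (without UCP1 3) to 1894 (without UCP1 1 or UCP1 2), and the log2 difference of Pfkfb3 from -0.0271 (without UCP1 2) to 0.404. The cause of these shifts was not tested.

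Arrays of equal replicate number showed no clear pairing. Deviations from the group means correlated at -0.24, -0.01 and 0.10 for numbers 1, 2 and 3, and not every array correlated best with its own number. Deviations within a group of 3 are tied to each other, so these correlations cannot exclude a pairing. With the replicate block 776 probes were called against 1021, with Bnip3 at adjusted p = 0.0505 and Bhlhe40 and Ddit4 still called. Dim readings limit what can be said of the second Ndrg1 probe, Epas1 and Egln1.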
